A study of Gallus gallus with 32 samples.

Results

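The hypothalamus of slow-growing broilers was compared between 3 and 6 weeks of age. The members were the 8 libraries labelled as hypothalamus of low growth rate (LGR) cockerels, 4 birds of 3 weeks and 4 other birds of 6 weeks, out of 32 libraries in the series. All were untreated male Ross 308 broilers, a commercial meat hybrid, and LGR birds were those that were lighter at 2 weeks of age. The sample fields gave the slaughter ages as day 22 and day 42, while the study's methods give a slightly later day for the older birds. The sample titles carry the numbers 14 and 28 instead. The whole hypothalamus was taken after a short feed withdrawal, and its polyadenylated RNA was sequenced. The 8 hypothalamus libraries of high growth rate (HGR) cockerels of the same ages, the heavier birds, served for comparison. They were used to ask whether a difference was particular to LGR birds. They also entered an alternative fit of the LGR age difference over all 16 hypothalamus libraries, but not the main fit. Since each bird was killed at its age, age cannot be told apart from slaughter day. The feed also changed from a starter to later mixtures between the ages. By the study's methods, LGR and HGR cockerels did not share a pen. The methods give the pens an n equal to the size of a group of one age, without saying what it counts. Pen may therefore go with growth rate and perhaps also with age. The pen of each sequenced bird is not stated, and a part of pen in the results was not tested.

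The hypothalamus lies at the base of the forebrain and sets feeding, growth, stress and reproduction. Neurons of its arcuate nucleus make the feeding peptides and growth hormone-releasing hormone. Neurons of its paraventricular nucleus make corticotropin- and thyrotropin-releasing hormones and oxytocin-family peptides. Many hypothalamic neurons are inhibitory and make GABA from glutamate with 2 related glutamate decarboxylases, which the deposited tables name GAD67 and GAD2.

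At 3 weeks the libraries held 14113986 to 15853276 counts, and at 6 weeks 14454099 to 16026111. Of 19 matched hypothalamic marker genes, 18 were at 1 CPM or more in every bird, and the marker sum is given with the transcription factors below. CPM is the count of a gene relative to the total of its library, scaled here over the 8 libraries, and levels are given in the order of replicates 1 to 4. The leading component of log CPM held 29.8% of the variance and separated the ages, with 3-week birds at -43.2 to -12.8 and 6-week birds at 7.09 to 34.4. Distances between birds in log CPM over all tested genes overlapped. They were 55.1 to 91.5 between ages (mean 75.3) and 55.2 to 85.2 within an age (mean 66.3). Mitochondrial genes took 22.0% of the counts in the 3-week replicate 1 and 6.75% to 11.6% in the other 7 birds. Summed CPM of pituitary markers, mostly CHGA and CGA, was 759, 2659, 2012 and 2333 at 3 weeks and 405, 409, 1670 and 415 at 6 weeks. In the pituitary libraries of LGR birds, scaled on their own, the same markers summed to 70458 to 120744 CPM. How much of the sums in the hypothalamus libraries came from cells of the hypothalamus itself was not tested. Summed CPM of meningeal markers was 872, 2128, 1307 and 728 at 3 weeks and 445, 387, 1024 and 335 at 6 weeks. All 8 tested pituitary genes and all 13 meningeal genes had a lower fitted level at 6 weeks, with median log2 fold changes of -1.26 and -1.11. None passed the edgeR test defined below with all 8 birds, while 2 pituitary genes did so without the 6-week replicate 3, and DESeq2 called 1 pituitary and 2 meningeal genes lower. The study set some libraries aside after clustering, and a figure legend of the study names a 6-week LGR sample among them. Its replicate number is not given there, and all 8 LGR libraries are kept here. The part of these differences in the results was not tested.

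**Figure D1:**
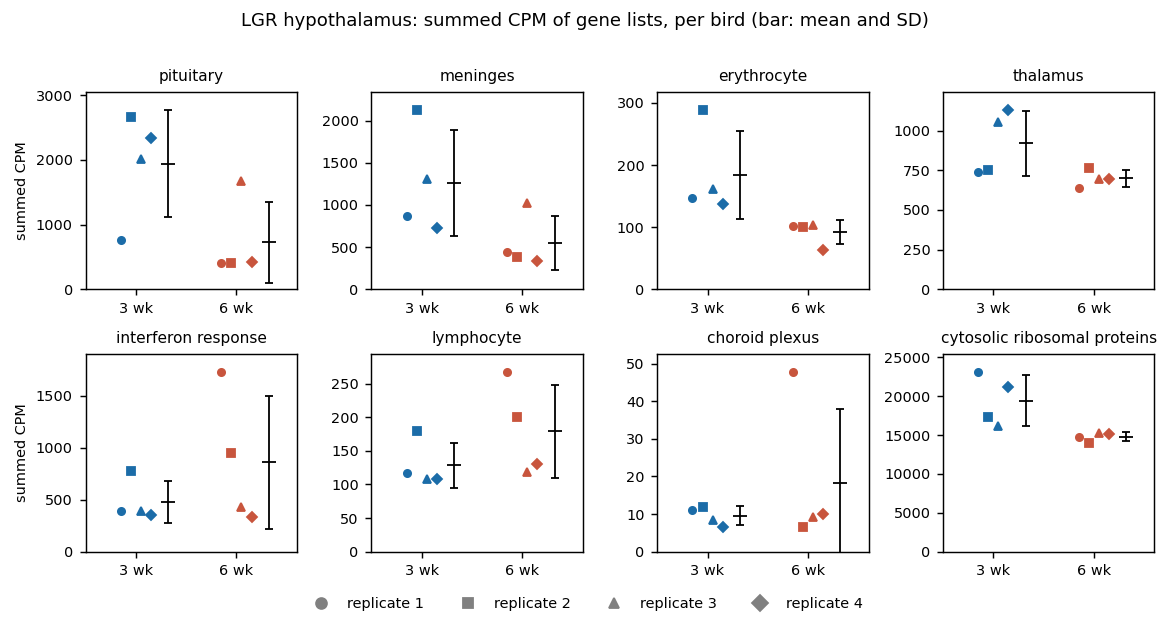
Summed CPM (vertical axis) of 8 gene lists in the 4 birds of 3 weeks and the 4 birds of 6 weeks (horizontal axis), LGR hypothalamus; symbols mark replicates, and the bar gives the mean and SD. Pituitary and meningeal sums are lowest in the 6-week replicates 1, 2 and 4, while the 6-week replicate 3, at 1670 and 1024, lies within the 3-week range.

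Of 14984 genes tested with edgeR, 28 were called, which is 0.187% of them. Calls needed a change of 1.5-fold or more and an adjusted p, by the Benjamini-Hochberg method, not above 0.05. Of the calls, 25 were higher at 6 weeks (0.167%) and 3 were lower (0.02%). In all 28 the groups did not overlap, as they did not in 13.6% of all genes tested, and the calls were made on the same difference. Of the 28, 21 had a gene symbol. The genes that rose included both glutamate decarboxylases, the complexin CPLX1, the synaptotagmins SYT1 and SYT4, a prohormone convertase and the transcription factor SIM1, and the 3 genes that fell were C2orf66, ALDH1A1 and PMP2. Without any threshold on the adjusted p, 2993 genes (20%) had an unadjusted p under 0.05, of which 1666 were higher and 1327 were lower at 6 weeks.

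The calls rested on the full set of birds. CPLX1, Meis2a.1, GAD67 and C2orf66 were called in all 8 fits that left out 1 bird, and each of the other 24 in 1 to 3 of these fits. The count of genes called higher went from 25 to 8 without the 3-week replicate 1, to 3 without replicate 2, to 65 without replicate 3 and to 12 without replicate 4. It was 4 without the 6-week replicate 1, 4 without replicate 2, 21 without replicate 3 and 5 without replicate 4. The count called lower ranged from 1 to 4 in these fits except without the 6-week replicate 3, where it was 32. Without the 6-week replicates 1 and 3 together, 2 genes were called higher and 3 lower.

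The called genes are ordered below by known role, a grouping made after the calls were seen and not tested as a list. Both decarboxylases rose. GAD67 (chromosome 7, 18286593 to 18311186) was at 132, 122, 141 and 114 CPM at 3 weeks and at 229, 245, 226 and 229 CPM at 6 weeks. The lowest 6-week bird stood well above the highest 3-week bird, and the means were 127 ± 11.8 and 232 ± 8.54 CPM (SD, n = 4 each). The log2 fold change was 0.87 (SE 0.09), or 1.83-fold, with an adjusted p of 0.00566. GAD2 (chromosome 2, 16272211 to 16303104) was at 188, 152, 235 and 178 CPM at 3 weeks and 333, 347, 331 and 323 CPM at 6 weeks. Its 3-week birds were the more spread, and the difference was 1.77-fold (log2 0.82, SE 0.12, adjusted p 0.0388). SLC32A1, which loads GABA and glycine into vesicles, was at 81.1, 73.9, 96.6 and 112 CPM at 3 weeks and 141, 151, 154 and 156 CPM at 6 weeks. Its groups did not overlap either, but with a log2 difference of 0.73 and an adjusted p of 0.0594 it was not called by edgeR. DESeq2, limma and the edgeR fit over 16 libraries did call it. In bulk tissue, more cells of a type and more RNA per cell cannot be told apart.

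Further called genes encode proteins of synapses. CPLX1 (chromosome Z, 52264712 to 52364226) encodes a complexin, a small protein that binds the fusion machinery of synaptic vesicles. It was at 53.7, 37.8, 52.5 and 37.6 CPM at 3 weeks and 120, 135, 141 and 129 CPM at 6 weeks. Every 6-week bird was above 3-week birds by a wide margin, with means of 45.4 ± 8.88 and 131 ± 8.85 CPM (SD, n = 4 each). This 2.89-fold rise (log2 1.53, SE 0.13) had an adjusted p of 0.0046. SYT1, the calcium sensor of fast transmitter release, rose 1.55-fold, from 273, 299, 344 and 308 CPM to 457, 500, 471 and 468 CPM. SYT4, another synaptotagmin, rose 1.53-fold (log2 0.61, SE 0.09), and SYTL2, a synaptotagmin-like Rab effector, rose 1.55-fold (log2 0.64, SE 0.10). WDR7, a WD-repeat protein of synaptic vesicles, rose 1.73-fold. NRXN3, a presynaptic adhesion protein, rose by 0.84 on the log2 scale, from 27.5 to 36.9 CPM at 3 weeks to 52.9 to 61.2 CPM at 6 weeks. CAMK2A, a subunit of the calcium/calmodulin kinase of synapses, rose 1.77-fold, from 48.4 to 67.7 CPM to 88.6 to 106 CPM. The adjusted p of these 6 genes lay between 0.0388 and 0.0457.

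Receptors, transporters and channels made up a further group of calls. SLC5A7, the choline transporter of cholinergic terminals, was at 3.83, 2.82, 2.58 and 2.30 CPM at 3 weeks and 7.10, 10.3, 6.53 and 7.55 CPM at 6 weeks, a 2.73-fold rise. NTSR1, a neurotensin receptor, was at 6.19, 5.76, 4.63 and 3.13 CPM at 3 weeks and 12.01, 15.0, 10.8 and 15.0 CPM at 6 weeks, a 2.67-fold rise. Both genes had an adjusted p of 0.0446. KCND3, a voltage-gated potassium channel, rose 1.73-fold, from 10.6 to 13.7 CPM to 19.7 to 22.4 CPM. NRP2, a co-receptor of semaphorins, rose 1.58-fold, from 55.4 to 76.1 CPM to 101 to 109 CPM. PCSK1, which cuts prohormones such as POMC into active peptides, was at 48.4, 63.7, 78.5 and 59.4 CPM at 3 weeks and 108, 122, 137 and 129 CPM at 6 weeks. It rose 1.98-fold (log2 0.99, SE 0.14, adjusted p 0.0388). FNDC9, a fibronectin type III domain protein, rose 2.85-fold from 3.44 to 6.26 CPM to 10.7 to 14.4 CPM, and the gene listed as FP rose 4.05-fold from 2.58 to 6.63 CPM to 11.1 to 17.6 CPM.

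**Figure D2:**
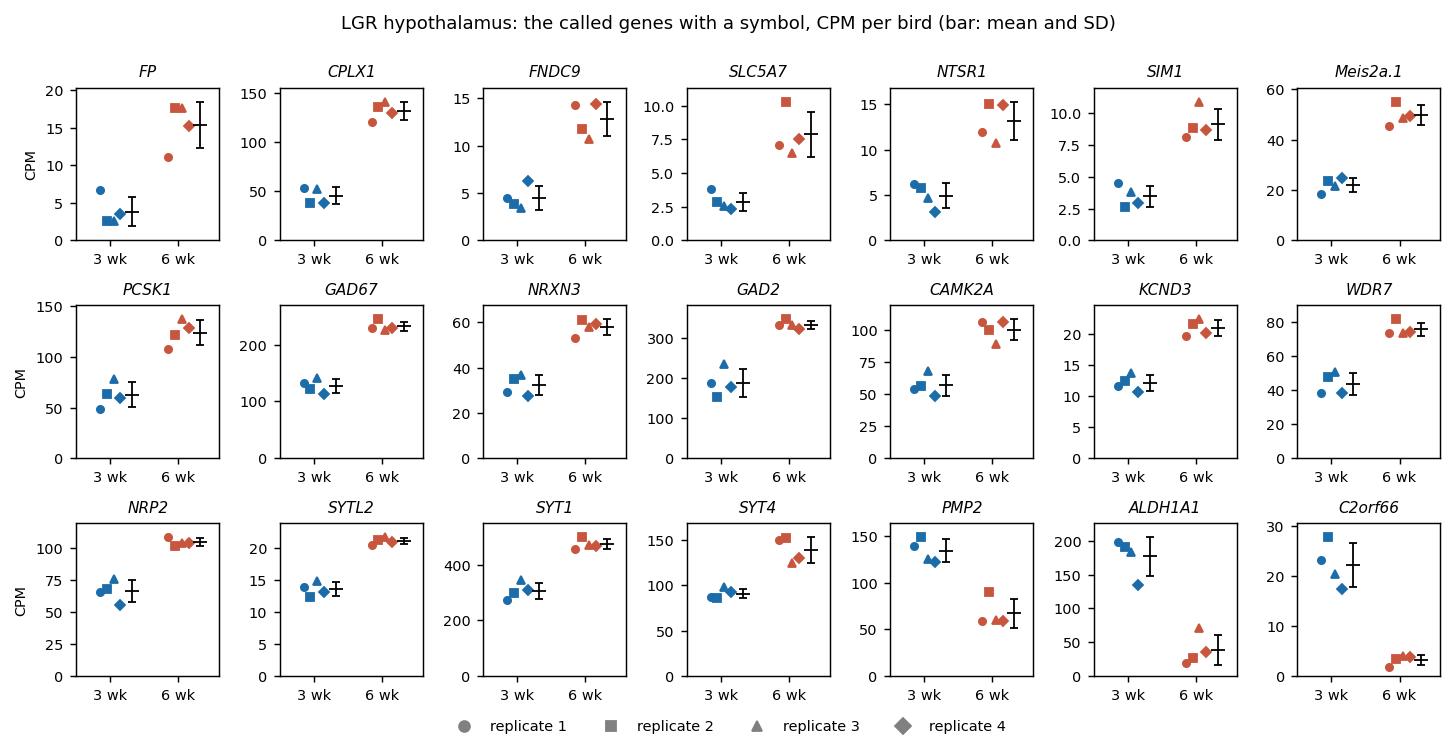
CPM (vertical axis, from 0) of the 21 called genes with a symbol in each LGR bird at 3 and 6 weeks (horizontal axis); symbols mark replicates, and the bar gives the mean and SD of the 4 birds. The ages do not overlap in any panel, and the 3 genes in the last panels, PMP2, ALDH1A1 and C2orf66, are lower at 6 weeks.

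Transcription factors were also called. SIM1 (chromosome 3, 71185380 to 71225432) is needed in mice for neurons of the paraventricular nucleus to form. It was at 4.50, 2.64, 3.77 and 2.92 CPM at 3 weeks and 8.11, 8.82, 10.9 and 8.71 CPM at 6 weeks, a 2.65-fold rise (log2 1.40, SE 0.20, adjusted p 0.0388). A MEIS2-type homeobox gene listed as Meis2a.1 (chromosome 5, 31240857 to 31409344) was at 18.5, 23.5, 21.7 and 24.8 CPM at 3 weeks. At 6 weeks it was at 45.4, 55.2, 48.8 and 49.5 CPM, so that the spread within each age was small beside the difference. It rose 2.25-fold (log2 1.17, SE 0.11, adjusted p 0.00566).

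The largest change among the 7 called genes without a symbol was that of ENSGALG00000036378, which was at 0.958, 0.180, 0.331 and 0.417 CPM at 3 weeks and 10.0, 7.87, 3.77 and 12.2 CPM at 6 weeks. Its log2 fold change was 4.18 (SE 0.50, adjusted p 0.0267). The 7 unnamed genes all rose, by log2 0.81 to 4.18.

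C2orf66 (chromosome 7, 10030005 to 10033873) fell most. It was at 23.3, 27.9, 20.4 and 17.5 CPM at 3 weeks and 1.82, 3.39, 4.02 and 3.88 CPM at 6 weeks, 6.78-fold lower (log2 -2.76, SE 0.25, adjusted p 0.0046). ALDH1A1 (chromosome Z, 35893999 to 35947479) encodes an enzyme that makes retinoic acid, the vitamin A signal. It was at 198, 191, 183 and 135 CPM at 3 weeks and 19.6, 26.1, 70.1 and 35.8 CPM at 6 weeks, 4.66-fold lower (log2 -2.22, SE 0.35, adjusted p 0.0446). Its highest 6-week level was in replicate 3, the bird with the highest 6-week sums of pituitary and meningeal markers. Its highest 3-week level was in replicate 1, the bird with the lowest 3-week sum of pituitary markers. A part of other tissue in the ALDH1A1 levels was not tested. PMP2, a fatty acid-binding protein of myelin, was at 140, 149, 125 and 123 CPM at 3 weeks and 58.7, 90.3, 59.6 and 59.3 CPM at 6 weeks, 2.00-fold lower (log2 -1.001, SE 0.15, adjusted p 0.0388).

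Levels of 38 lists of genes were then described, with the count of called members and, where few or none were called, the count with an unadjusted p under 0.05. Among all genes tested this unadjusted share was 11.1% in the higher direction and 8.86% in the lower direction. The median log2 fold change was -0.01. Counts by edgeR in the lists are those of the main fit. Over all 14984 genes tested, DESeq2 called 271 higher and 157 lower, and limma called 41 higher and 28 lower. None of 36 receptor subunits for glutamate, GABA and glycine was called by edgeR or by limma, and DESeq2 called 3 higher. By edgeR 19 of them had an unadjusted p under 0.05, all higher at 6 weeks, and the list's median log2 fold change was 0.34. In 18 of the 36 every 6-week bird was above every 3-week bird, against 8.49% of all genes. GABBR2, a subunit of the metabotropic GABA receptor, differed by log2 0.44 (SE 0.08, adjusted p 0.0689), and GABRA4, a subunit of the GABA-gated chloride channel, by log2 0.62. By DESeq2 the adjusted p of GABBR2 was 0.000287, and it missed a call there by the 1.5-fold limit alone. Of 35 voltage-gated channel genes edgeR called 1, KCND3, and DESeq2 called 3 higher, and by edgeR 13 were higher and 1 lower at an unadjusted p under 0.05, with a median of 0.25. Of 40 axon guidance genes edgeR called 1, NRP2, limma called none and DESeq2 called 3 higher, and by edgeR 13 were higher and 1 lower at an unadjusted p under 0.05, with a median of 0.23. Of 11 general neuron markers edgeR called 2, SYT1 and GAD2, and DESeq2 and limma called 3 each, and the median was 0.15. Summed CPM of neuron markers was 4099 to 6725 at 3 weeks and 5033 to 5983 at 6 weeks, so that the ages overlapped.

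Genes of the ribosome and of the matrix lay on the other side. None of 56 cytosolic ribosomal protein genes was called by edgeR or limma, and DESeq2 called 2 lower, while 46 had an unadjusted p under 0.05, all lower at 6 weeks. All 56 had a fitted level below that of 3 weeks, with log2 fold changes from -0.64 to -0.22 and a median of -0.40. In 31 of 56 every 6-week bird was below every 3-week bird, against 5.13% of all genes. RPS2 differed by log2 -0.52 (SE 0.10, adjusted p 0.0777) and RPL11 by log2 -0.48. By DESeq2 their adjusted p was 0.000317 and 0.00136, and both missed a call there by the 1.5-fold limit alone. The list median also lay short of that limit. Their summed CPM was 23080, 17360, 16107 and 21187 at 3 weeks and 14682, 13988, 15267 and 15155 at 6 weeks, highest in the 3-week replicates 1 and 4. Of 39 nuclear genes of oxidative phosphorylation 11 had an unadjusted p under 0.05, all lower at 6 weeks, and the median was -0.19. Of 50 matrix and integrin genes none was called by edgeR, 1 was called higher by limma, and DESeq2 called 1 higher and 6 lower. By edgeR 20 were lower and 1 higher at an unadjusted p under 0.05, with a median of -0.37. COL3A1, a fibrillar collagen that is also on the meningeal list, was at 155.9 CPM in the 6-week replicate 3 and lower in the other 6-week birds, with a log2 fold change of -1.31. Of 12 retinoid genes edgeR and limma called ALDH1A1 alone and DESeq2 called 2 lower, while by edgeR 7 had an unadjusted p under 0.05, all lower at 6 weeks, and all 12 had a lower fitted level, with a median of -0.30. Summed CPM of the retinoid genes was 379.6 to 494 at 3 weeks and 203 to 288 at 6 weeks, and much of this difference was ALDH1A1 itself. Without ALDH1A1 the sum was 231 to 303 CPM at 3 weeks and 177 to 217 CPM at 6 weeks, with means of 255 ± 32.6 and 194 ± 18.1 CPM (SD, n = 4 each).

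**Figure D3:**
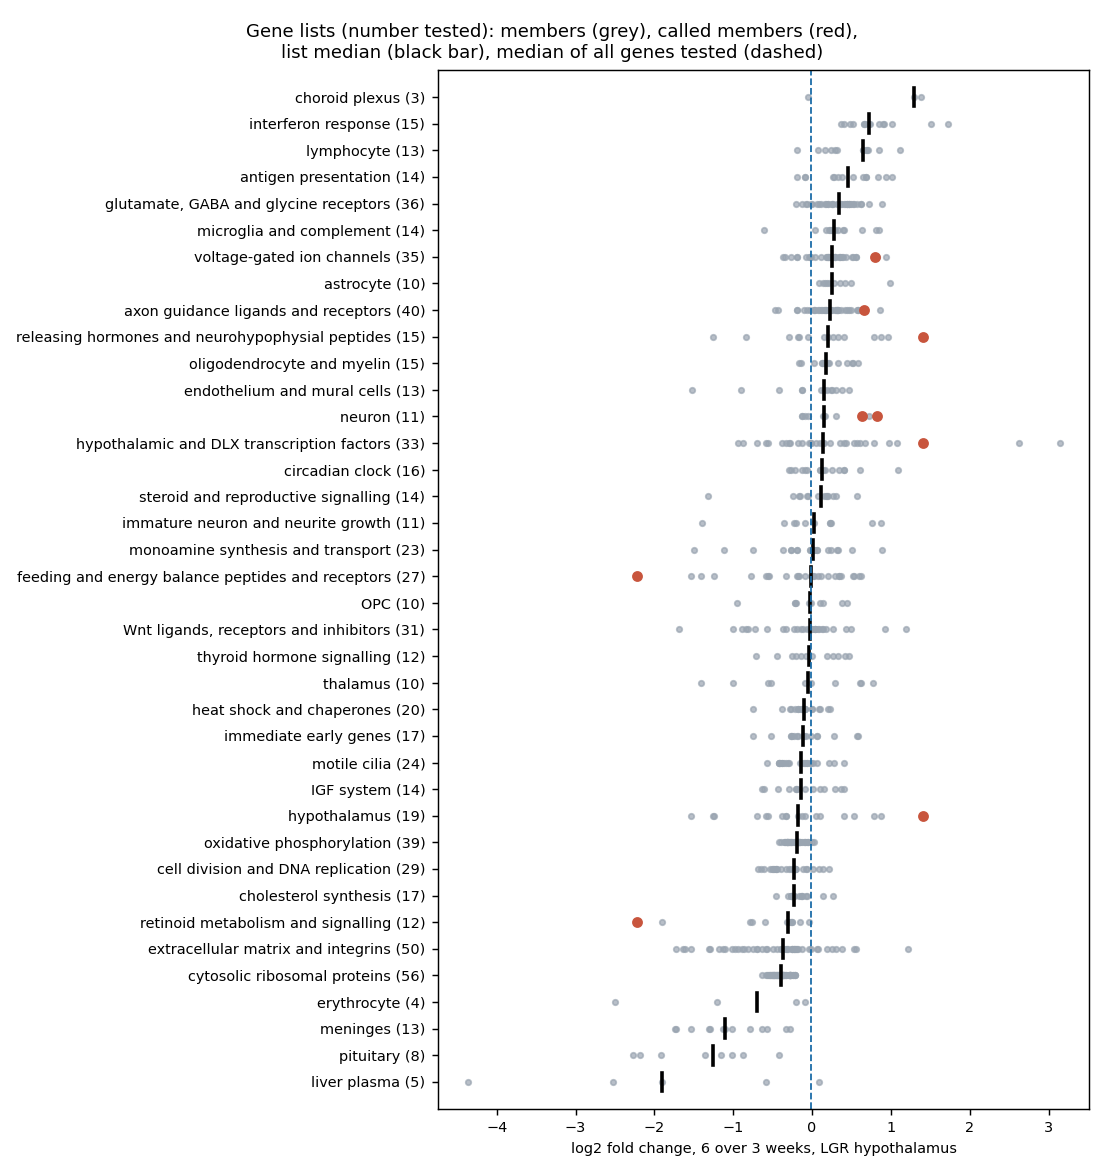
Log2 fold change of 6 over 3 weeks in LGR hypothalamus (horizontal axis) for the tested members of 38 gene lists (vertical axis, number tested in parentheses); red points are called members, black bars list medians, and the dashed line the median of all genes tested. Members of the ribosomal list all lie below 0, with a median of -0.40, and those of the transmitter receptor list mostly above 0, with a median of 0.34.

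Feeding and releasing peptides differed in direction from one another, and the main edgeR fit called no peptide gene. The peptide and transcription factor genes of this and the next paragraph, SIM1 apart, were chosen after their values were seen. POMC, the precursor of melanocortins and corticotropin, was at 206, 327, 317 and 267 CPM at 3 weeks and 26.2, 75.2, 163 and 121 CPM at 6 weeks. Its groups did not overlap, with a log2 difference of -1.54 (SE 0.44, adjusted p 0.121), and POMC is also made by pituitary cells. GHRH, which drives growth hormone release, was at 73.8, 113, 120 and 74.7 CPM at 3 weeks and 11.8, 39.9, 68.1 and 39.2 CPM at 6 weeks (log2 -1.26, adjusted p 0.149). PMCH, which encodes melanin-concentrating hormone, was at 71.9, 20.2, 50.4 and 44.1 CPM at 3 weeks and 12.9 to 26.6 CPM at 6 weeks, and the groups overlapped. NMU, an appetite-reducing peptide, lay at 4.56 to 7.17 CPM at 3 weeks and at 1.09 to 3.33 CPM at 6 weeks (log2 -1.41, adjusted p 0.0935). On the other side, TRH, thyrotropin-releasing hormone, was at 60.4, 10.99, 33.2 and 39.7 CPM at 3 weeks and 66.4, 67.5, 53.0 and 75.7 CPM at 6 weeks (log2 0.87, adjusted p 0.245). CRH, corticotropin-releasing hormone, lay at 1.56 to 5.57 CPM at 3 weeks and at 5.84 to 9.39 CPM at 6 weeks (log2 0.78, adjusted p 0.248). The oxytocin-family gene, named OXT after the study's primer list, was at 494, 11.5, 6.81 and 301 CPM at 3 weeks and 1232, 830, 1380 and 2686 CPM at 6 weeks. The 3-week birds fell into a high and a low pair for OXT, and its log2 difference of 2.91 (SE 1.12) had an adjusted p of 0.201. Of 27 feeding genes edgeR called 1, ALDH1A1, and 5 were higher and 7 lower at an unadjusted p under 0.05, while DESeq2 called 1 higher and 6 lower. Of 15 genes on the releasing hormone list edgeR called 1, SIM1, and 6 were higher and 2 lower at an unadjusted p under 0.05, while DESeq2 called 2 higher. HDC, which makes histamine, was at 16.3, 33.3, 28.1 and 22.3 CPM at 3 weeks and 6.60, 6.38, 13.6 and 8.91 CPM at 6 weeks (log2 -1.49, adjusted p 0.0756).

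Among 33 regional transcription factors SIM1 was called, and 11 were higher and 6 lower at an unadjusted p under 0.05. DESeq2 called 9 of the 33 higher and 3 lower, against 271 higher and 157 lower of all 14984 genes tested. Limma called 2 of the 33 higher. The edgeR fit over 16 libraries called 6 of them higher, against 71 of 15414 genes. LHX8, a factor of basal forebrain neurons, was at 3.32, 1.08, 1.12 and 2.92 CPM at 3 weeks and 12.8, 12.3, 6.03 and 20.9 CPM at 6 weeks (log2 2.63, adjusted p 0.0601). LHX6, a factor of GABA neurons born in the basal forebrain, was at 3.76, 2.22, 3.37 and 3.13 CPM at 3 weeks and 8.49, 7.13, 6.47 and 10.8 CPM at 6 weeks (log2 1.40, adjusted p 0.0507). In both genes every 6-week bird was above every 3-week bird, as in all 25 genes called higher and in 8.49% of all genes tested. DLX6, a factor of forebrain GABA neurons, differed by log2 0.97. NKX2-1, a factor of the ventral hypothalamus, was at 31.2, 36.3, 30.1 and 24.6 CPM at 3 weeks and 17.9, 17.4, 24.0 and 22.3 CPM at 6 weeks (log2 -0.58, adjusted p 0.109). TBX2 lay at 6.75 to 9.43 CPM at 3 weeks and at 3.27 to 5.71 CPM at 6 weeks (log2 -0.94, adjusted p 0.09). Summed CPM of the 19 hypothalamic markers was 910, 844, 927 and 1079 at 3 weeks and 502, 640, 772 and 665 at 6 weeks, and the ages did not overlap. By edgeR 7 of these markers were lower and 4 higher at an unadjusted p under 0.05, with SIM1 the 1 called, and DESeq2 called 3 lower and 1 higher. The largest fall on this list, log2 -1.54, was that of POMC, which pituitary cells also make. By its levels given above, POMC made up much of the fall in the sum. With POMC taken out of the sum of each bird, a step chosen after its values were seen, the ages overlapped. In the pituitary libraries of LGR birds, scaled on their own, the 19 markers, POMC among them, summed to 26381 to 105835 CPM. A part of pituitary tissue in the POMC levels or in the marker sum was not tested. Summed CPM of thalamic markers was 737 to 1130 at 3 weeks and 637 to 767 at 6 weeks. The part of dissection limits in the calls was not tested.

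**Figure D4:**
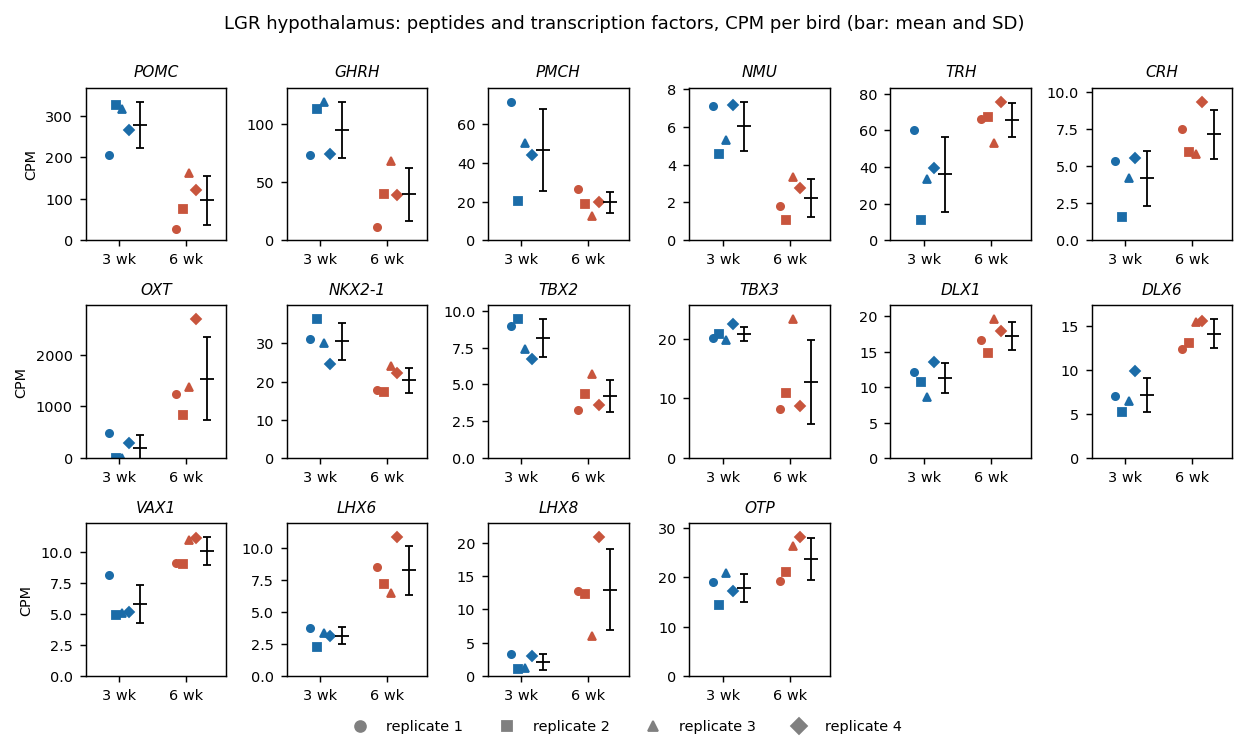
CPM (vertical axis, from 0) of 7 peptide and 9 transcription factor genes in each LGR bird at 3 and 6 weeks (horizontal axis); symbols mark replicates, and the bar gives the mean and SD of the 4 birds. LHX6 and LHX8 are higher in every 6-week bird than in any 3-week bird, and POMC, GHRH and NKX2-1 are lower. None of these 5 genes was called by the main edgeR fit.

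Other lists held few or no edgeR calls. None of 15 interferon response genes had an unadjusted p under 0.05, although the median log2 fold change was 0.72. Their summed CPM was 347 to 772 at 3 weeks and 1724, 949, 426 and 327 at 6 weeks, so that the 6-week replicates 1 and 2 alone were above the 3-week range. Of 29 genes of cell division 5 had an unadjusted p under 0.05, all lower at 6 weeks, with a median of -0.23. Of 10 astrocyte markers 3 had an unadjusted p under 0.05, all higher, and of 15 oligodendrocyte markers 1 did, also higher, with medians of 0.25 and 0.18. All 10 astrocyte markers had a higher fitted level at 6 weeks, and DESeq2 and limma called 1 of them each. Their summed CPM was 4383 to 5459 at 3 weeks and 5499 to 6260 at 6 weeks, without overlap. Neither tool called an interferon, cell division or oligodendrocyte gene. HBAD, a globin of red blood cells, was at 63.7, 175, 86.4 and 74.1 CPM at 3 weeks. At 6 weeks it was at 17.7, 13.2, 33.7 and 6.05 CPM (log2 -2.50, adjusted p 0.0762). The main edgeR fit did not call HBAD, but DESeq2, limma and the edgeR fit over 16 libraries called it lower. In HGR birds its log2 fold change was -2.26 (SE 0.31). Summed CPM of erythrocyte markers was 137 to 289 at 3 weeks and 63.5 to 103 at 6 weeks, so that the ages did not overlap. A part of blood in the results was not tested.

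The same ages were compared in HGR birds, whose libraries played no part in the 28 edgeR calls above. They did enter the alternative edgeR fit over 16 libraries. With edgeR none of 14982 genes was called (0%), the lowest adjusted p was 0.114, and 1162 genes (7.76%) had an unadjusted p under 0.05. DESeq2 called 7 higher and 27 lower in HGR birds, and limma called none. Of the 28 genes called in LGR birds, 24 differed in the same direction in HGR birds, and 10 had an unadjusted p under 0.05 there. The share of all genes with the same direction in both was not computed, so the count of 24 has no background beside it. Across 14793 genes tested in both, the log2 fold changes of LGR and HGR birds, which share no library, had a Pearson r of 0.38 and a Spearman rho of 0.43, and genes are not independent replicates. C2orf66 and ALDH1A1, which fell in LGR birds, had HGR log2 fold changes of -1.66 (SE 0.47) and -1.57 (SE 0.50). FNDC9 had 0.82 (SE 0.22), FP 0.52 (SE 0.11) and PCSK1 0.45 (SE 0.14). GAD67 had 0.18 (SE 0.14), with HGR levels, scaled over all 16 hypothalamus libraries, of 151, 163, 183 and 253 CPM at 3 weeks and 198, 233, 200 and 215 CPM at 6 weeks. Meis2a.1 had -0.19 (SE 0.21), and LHX8 had 0.27 (SE 0.45).

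The difference between the LGR and HGR changes was tested as an interaction over the 16 hypothalamus libraries. Of 15414 genes 1 was called, 0.00649%, and 852 (5.53%) had an unadjusted p under 0.05. The called gene was ENSGALG00000028819, which has no symbol and was at 0.442, 0.180, 0.198 and 0.278 CPM in LGR birds at 3 weeks and 1.70, 1.36, 2.89 and 1.90 CPM at 6 weeks. In HGR birds it was at 1.92, 1.38, 1.78 and 1.79 CPM at 3 weeks and 1.31, 1.37, 1.07 and 0.894 CPM at 6 weeks. The LGR change exceeded the HGR change by 3.39 on the log2 scale (SE 0.44, adjusted p 0.0129), and no gene was called without the LGR 3-week replicate 2 or 3, the HGR 3-week replicate 3 or the HGR 6-week replicate 3 or 4. Of the 28 genes called in LGR birds 23 had an interaction p under 0.05 before adjustment, but these genes were chosen on the LGR change that the interaction contains, so nothing is read from that count. Meis2a.1 differed between the changes by 1.36 (adjusted p 0.201), SLC32A1 by 0.83 (adjusted p 0.143) and GAD67 by 0.70 (adjusted p 0.505). For genes with a symbol, a difference between LGR and HGR birds in the age change was therefore not shown by the edgeR test. DESeq2 called 23 genes for the interaction and limma 7, and which of them have a symbol is not given here. Without the 6-week LGR replicates 1 and 3 together, edgeR called 1 gene, and it was not ENSGALG00000028819.

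**Figure D5:**
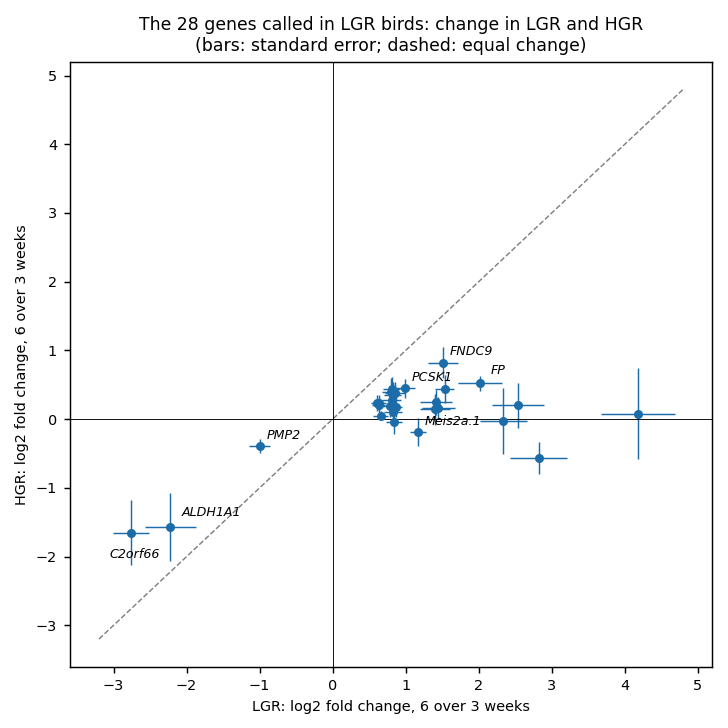
Log2 fold change of 6 over 3 weeks in LGR birds (horizontal axis) and HGR birds (vertical axis) for the 28 genes called in LGR birds, with standard errors as bars; the dashed line marks equal change. All 28 changes are larger in size in LGR birds, in which the genes were chosen, and C2orf66 and ALDH1A1 lie at -1.66 and -1.57 on the HGR axis.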

How the data were processed

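Hypothalamus and pituitary RNA of Ross 308 cockerels was sequenced, and the 8 LGR hypothalamus libraries were analysed here, with the 8 HGR hypothalamus libraries for comparison. Per the labels and the study's methods, the authors trimmed single-end reads from an unstranded TruSeq kit and counted them per gene with RSEM. The deposited table holds whole-number counts for 24881 genes; 10132 were given symbols from the deposited result tables, whose coordinates are printed with no build named. Those tables also hold the authors' own DESeq2 comparisons, which were not used. RSEM estimates need not be whole, but every value in the deposited table was. Reads from overlapping antisense genes and near-identical copies cannot be separated.

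Genes were kept by filterByExpr (minimum count 10, minimum total 15) and scaled by TMM, and a quasi-likelihood model was fitted in edgeR 4.0.16 under R 4.3.3, with Benjamini-Hochberg adjustment over all genes tested. The SE of a log2 fold change was its size divided by the square root of the F statistic. Log CPM used a prior count of 2. The interaction of age and growth rate was fitted over 16 libraries. DESeq2 1.42.0, limma 3.58.1 (voom with quality weights) and other scalings, filters and sets of libraries were tried as alternatives. The scripts were tested on simulated data. Replicates were separate birds, and whether those of a group shared a pen is not stated. The text names the called genes, up to 12 in each direction by size and up to 3 called members of a list, or, where none was called, the 2 members of lowest p, and other genes are said to be chosen after their values were seen. Called genes outside these limits (WDR7, SYT4, SYTL2) were named after their values were seen, since all calls with a symbol are shown. The members and gene lists were chosen with earlier results of these data known. Single genes withheld from the text are counted in their lists but not reported here.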

Additional observations from a re-analysis of the deposited data

Results flagged for a closer look

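In groups of 4 birds, the bird farthest from the others was compared with the spread of its group by Dixon's test. Of 210 groups tested, 20 had a bird past its critical value, and chance gives about 1 in 20 for independent groups. These groups were not independent, since they share birds and the marker sums contain genes also tested singly. Nothing is therefore read from the count of 20. At 3 weeks, replicate 1 was set apart by ALB at 180.5 CPM, AHSG at 12.01 CPM and SPARCL1 at 12.8 CPM. Replicate 2 was set apart by CDK1 at 20.9 CPM, STAT2 at 51.3 CPM and by its erythrocyte and lymphocyte marker sums of 289 and 179 CPM, and replicate 3 by NCOA1 at 85.6 CPM.

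At 6 weeks, replicate 1 was set apart by SLC4A5 at 18.9 CPM, KL at 20.8 CPM and a choroid plexus marker sum of 47.8 CPM. Replicate 2 stood apart in PMP2, at 90.3 CPM, and in WDR7, at 81.7 CPM, and both genes were called between the ages. Replicate 3 had COL3A1 at 155.9 CPM, COL1A2 at 337 CPM and NSDHL at 25.2 CPM, with pituitary and meningeal marker sums of 1670 and 1024 CPM. Replicate 4 was low in the erythrocyte marker sum, at 63.5 CPM, and in the called gene ENSGALG00000031439, at 3.06 CPM. Between LGR and HGR birds, the age change of ENSGALG00000028819 differed by 3.39 on the log2 scale by the interaction test over 16 libraries.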

How the results depend on the processing

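The 25 and 3 genes called higher and lower became 29 and 4 with RLE scaling, 22 and 3 with upper-quartile scaling, 25 and 3 with no filter, 29 and 3 with a filter at 1 CPM and 26 and 3 by adjusted p alone. DESeq2 called 271 and 157, sharing 24 and 3 with edgeR, limma called 41 and 28, sharing 21 and 3, and the fit over 16 libraries called 71 and 28, sharing 25 and 3. Without the 6-week LGR replicates 1 and 3 together, 2 and 3 were called. Leaving out 1 bird at a time gave 3 to 65 higher and 1 to 32 lower. Replicate numbers were no pairing in the labels, and the deviations of same-numbered birds of different ages correlated at 0.020, 0.028, 0.137 and 0.241, so that not every pair passed 0.1. With the replicate number as a block, 7 genes were called higher and 2 lower.

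The 1 interaction call became 2 with no filter, 23 with DESeq2, 7 with limma, 0 with the replicate block and 0 to 8 leaving out 1 bird at a time; it fell to 0 without the LGR 3-week replicate 2 or 3, the HGR 3-week replicate 3 or the HGR 6-week replicate 3 or 4. The causes were not tested. Of 89 named genes 88 kept their direction in every alternative run, and KL went to -0.050 without the 6-week replicates 1 and 3. Of 38 list medians 8 changed sign in some alternative. Genes near 1 CPM rest on few counts per bird, and 4 birds an age limit the smallest exact two-sided permutation p to 0.0286. DESeq2 and limma were run on HGR birds alone after the data had been seen.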
